A study of Mus musculus with 9 samples.

Results

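The genes of prostaglandin and leukotriene synthesis described here are Pla2g4a, Ptgs1, Ptgs2, Ptges, Ptges2, Ptges3, Ptger4, Alox5, Alox5ap and Lta4h. They were picked by gene symbol as enzymes, an enzyme activator and a receptor of this pathway, and make up 10 of the 16921 genes in the RiboSeq table. Each symbol matched 1 row. RiboSeq counts ribosome-protected mRNA fragments (footprints), so that a gene's value follows the amount of its mRNA as well as how densely ribosomes occupy it, and these cannot be told apart from footprints alone.

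All 9 libraries came from TTP-deficient bone marrow-derived macrophages (BMDMs) that had been immortalized with the oncogenes hcmyc and hRasG12V and were CD11b and F4/80 positive. The control macrophages are thus labelled as TTP-deficient as well. The macrophages carried a tet-inducible retroviral vector for GFP, for GFP-TTP or for GFP-TTP-AA, a mutant of TTP in which the sites phosphorylated by the kinase MK2 are exchanged for alanine. Each of these lines was transduced separately and gave 3 libraries, numbered 1, 2 and 3, and all cells received doxycycline (1 μg/ml) for 6 h and LPS (1 μg/ml) for 1 h. Differences between the lines and the effect of the expressed protein cannot be told apart. The sources do not say whether the libraries of a line came from separate cultures.

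Prostaglandins and leukotrienes are lipid mediators made from arachidonic acid. Cytosolic phospholipase A2 (Pla2g4a) releases the acid from membranes. The cyclooxygenases COX-1 (Ptgs1) and COX-2 (Ptgs2) turn it into prostaglandin H2, which the prostaglandin E synthases convert to prostaglandin E2. Prostaglandin E2 signals through receptors such as EP4 (Ptger4). In the other branch 5-lipoxygenase (Alox5), with its activating protein FLAP (Alox5ap), makes leukotriene A4, and leukotriene A4 hydrolase (Lta4h) converts that to leukotriene B4. LPS induces COX-2 in macrophages. TTP (Zfp36) binds AU-rich elements in the 3′UTRs of mRNAs and promotes their decay, and MK2 inactivates TTP.

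The AU-rich motifs of the 3′UTRs are shown first because they are the sequences that TTP is known to recognise. ATTTA and the longer TATTTAT, which contains it, were searched on the sense strand of 1 annotated transcript per gene (GENCODE vM21 on GRCm38). The 3′UTR of Ptgs2 (2445 nt) held 14 ATTTA and 6 TATTTAT, with overlaps counted, the most of all members. Of the ATTTA copies, 7 lay between 16 and 61 nt after the stop codon. Comparisons with other genes used those kept for a mean value of at least 10. Of 1211 kept genes with a 3′UTR of 0.8 to 1.2 times that length, 0.661% held at least as many ATTTA. Pla2g4a had 4 ATTTA and 0 TATTTAT in only 443 nt, and 2.74% of the 950 genes of similar 3′UTR length held at least as many. Ptger4 had 5 ATTTA and 2 TATTTAT in 1233 nt, against 13.2% of similar genes with at least as many. Alox5 had 2 ATTTA, of which 1 lay in a TATTTAT, and Alox5ap had 2 ATTTA and 0 TATTTAT. One stretch of 30 bases is given for each of these members, 5′ to 3′ on the strand of the gene, with ATTTA in capitals.
Ptgs2 (chr1:150105798-150105827, plus strand, 3′UTR): ATTTATTTATTTAtgtgaagaATTTAattt
Pla2g4a (chr1:149829656-149829685, minus strand, 3′UTR): tttttATTTAaatgtttatATTTAcacata
Ptger4 (chr15:5234215-5234244, minus strand, 3′UTR): gaaatataATTTAaggtATTTAtgttcttc
Alox5 (chr6:116410351-116410380, minus strand, 3′UTR): gtactttattctATTTAtgcttcctccaat
Alox5ap (chr5:149287926-149287955, plus strand, 3′UTR): cggtggcccaggATTTAttgtctacatcca

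Ptges2 and Ptges3 each had 4 ATTTA and 0 TATTTAT in longer 3′UTRs of 3444 and 1186 nt. No ATTTA was found in the annotated 3′UTRs of Ptgs1 (921 nt), Ptges (3106 nt) and Lta4h (94 nt). For Ptges this was uncommon, since 96.8% of the 1001 genes of similar 3′UTR length held at least 1 copy. For the short 3′UTR of Lta4h the share was 17.2%. Among all 9852 kept genes with an annotated 3′UTR, 66.7% held at least 1 ATTTA and 27.8% at least 1 TATTTAT. A match describes letters in this window and not binding of TTP.

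**Figure D1:**
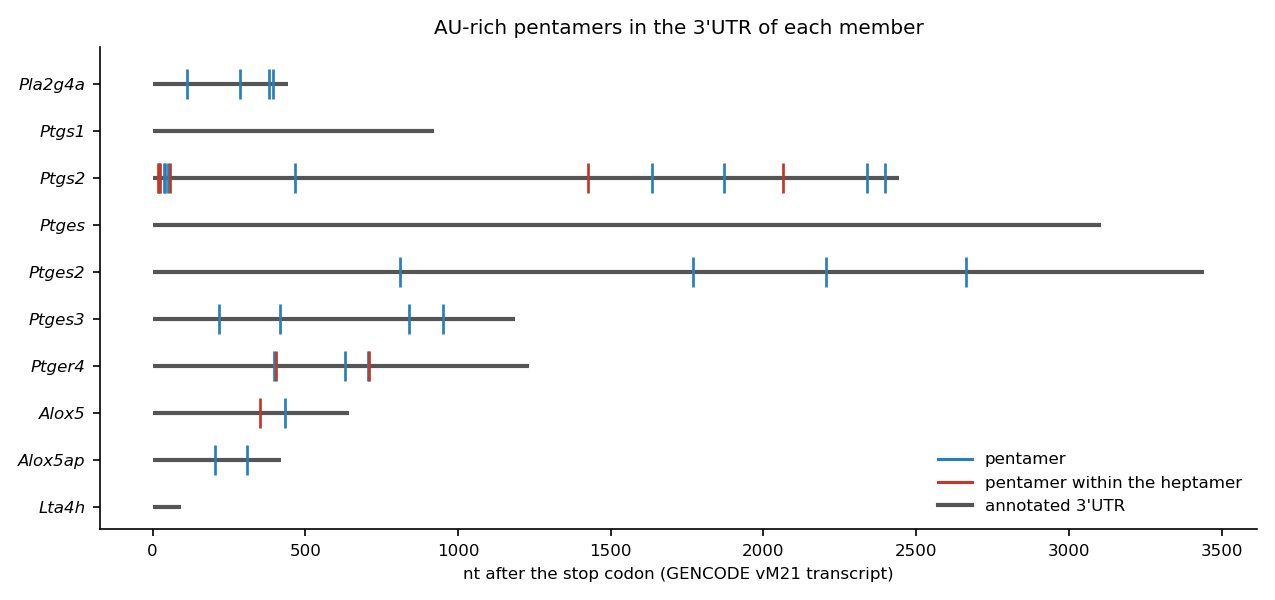
Position of the AU-rich motifs along the annotated 3′UTR of each member, in nt after the stop codon. Blue ticks are ATTTA pentamers, red ticks are pentamers that lie within a TATTTAT heptamer, and grey lines are the 3′UTRs; the cluster of Ptgs2 right behind the stop codon and the empty 3′UTR of Ptges are visible.

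The deposited values are not observed counts but what the authors' model fitted for each gene and library. On the log2 scale terms for the library, the condition and the replicate number added up to each value, with a residual SD of 1.46e-15. Apart from the library term, which the scaling described below takes out, the 3 libraries of a condition therefore differ only by terms that are the same in all conditions. The spread between replicates is not in the values, no test of a difference between conditions was possible, and the same order of conditions in all 3 replicate numbers is no sign of stability. The fitted differences are also drawn towards 0 for low genes: among genes with a mean under 1 the SD of the differences was 0.04 in each comparison. Each fitted value was divided by a scaling factor of its library (0.416 to 2.14), and the result is called the scaled value. The sum of fitted values in a library, which stands in for its depth, ranged from 2570292 to 12804501. A level is the geometric mean of the scaled values of 3 libraries. Differences between levels are given on the log2 scale, and a difference of at least 0.5 in either direction is called past the fold. The interval beside a difference is a 95% interval for counting error alone, computed as if the fitted values were reads, and does not cover biological or technical variation between libraries.

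Ribosome footprints on all 10 members were measured above the minimum mean of 10, which 10102 genes passed. Per kilobase of coding sequence, Alox5ap had the highest mean scaled value (8191), above 99.0% of the 9968 kept genes with a coding length. Ptges3 followed with 4767 per kilobase and Pla2g4a with 1062, above 97.9% and 88.8% of these genes. Ptgs2 came next at 782 per kilobase, then Lta4h at 500.4, Alox5 at 497, Ptges2 at 204 and Ptgs1 at 169. Lta4h and Alox5 are neighbours in this order and exchanged places between conditions, with 513 against 484 per kilobase in GFP-only macrophages and 505 against 585 in GFP-TTP-AA macrophages. Ptger4 (80.9 per kilobase) and Ptges (52.3 per kilobase) were the lowest members, above 34.9% and 25.3% of the kept genes.

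Zfp36, the gene of TTP, had a level of 459.9 in GFP-only macrophages, 929 in the GFP-TTP line and 1529 in the GFP-TTP-AA line, and footprints on the expressed coding sequences count towards it. The GFP-only line, though labelled as TTP-deficient, was thus not without values for Zfp36, and the table does not show which part of the gene these footprints cover. The lines thus had unequal Zfp36 footprint levels, while by western blot the paper reports GFP-TTP and GFP-TTP-AA protein at a similar extent. The part of the unequal footprint levels in the results was not tested. Macrophage identity was checked with 9 markers, all of which were listed, with summed levels of 93928 with GFP, 74135 in the GFP-TTP line and 106100 in the GFP-TTP-AA line. Lyz2 alone made up most of each sum, with levels of 64160, 46111 and 71085 in the same order. The lowest of the markers was Mertk, with a mean of 4.94. Of markers of other cell types, those of mast cells and epithelium were not listed, those of T cells, B cells and fibroblasts summed to 2.07 or less per list in every condition, and of 5 neutrophil markers only S100a8, with levels of 25.7 to 55.6, and Mpo, with a mean of 0.125, were listed. In bulk libraries, fewer cells of a type and less RNA per cell cannot be told apart.

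None of the 10 members was past the fold between GFP-TTP and GFP-only macrophages, where 4.3% of the kept genes were (1.58% higher and 2.71% lower with GFP-TTP). In GFP-TTP-AA macrophages 1 of 10 was past the fold against GFP-only macrophages, Pla2g4a, which was lower. Of the kept genes 6.04% were past the fold in that comparison, 3.42% higher and 2.62% lower. When the GFP-TTP-AA and the GFP-TTP line were compared, 4 of 10 were past the fold, of which Alox5 and Ptges were higher and Pla2g4a and Ptger4 lower with GFP-TTP-AA. The share of kept genes here was 10.8%, with 5.92% higher and 4.84% lower. The 3 comparisons share their libraries, so that their values are not independent. The median difference of the members was -0.12, 0.07 and 0.21 in these comparisons, beside medians over all kept genes that rounded to 0.00 or -0.01. Without regard to sign the median size was 0.24, 0.20 and 0.46 for the members and 0.15, 0.15 and 0.19 for all kept genes.

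In 9 of the 10 members the GFP-only level lay between the other levels, as it did in 45.3% of the kept genes. Pla2g4a, Ptgs1, Ptges2 and Ptger4 were highest with GFP-TTP and lowest in the GFP-TTP-AA line, an order shared by 23.1% of the kept genes. Ptgs2, Ptges, Ptges3, Alox5 and Alox5ap had the opposite order, as had 22.2% of the kept genes. For Lta4h the GFP-only level was the highest. The order takes no account of error and includes differences whose counting interval held 0.

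**Figure D2:**
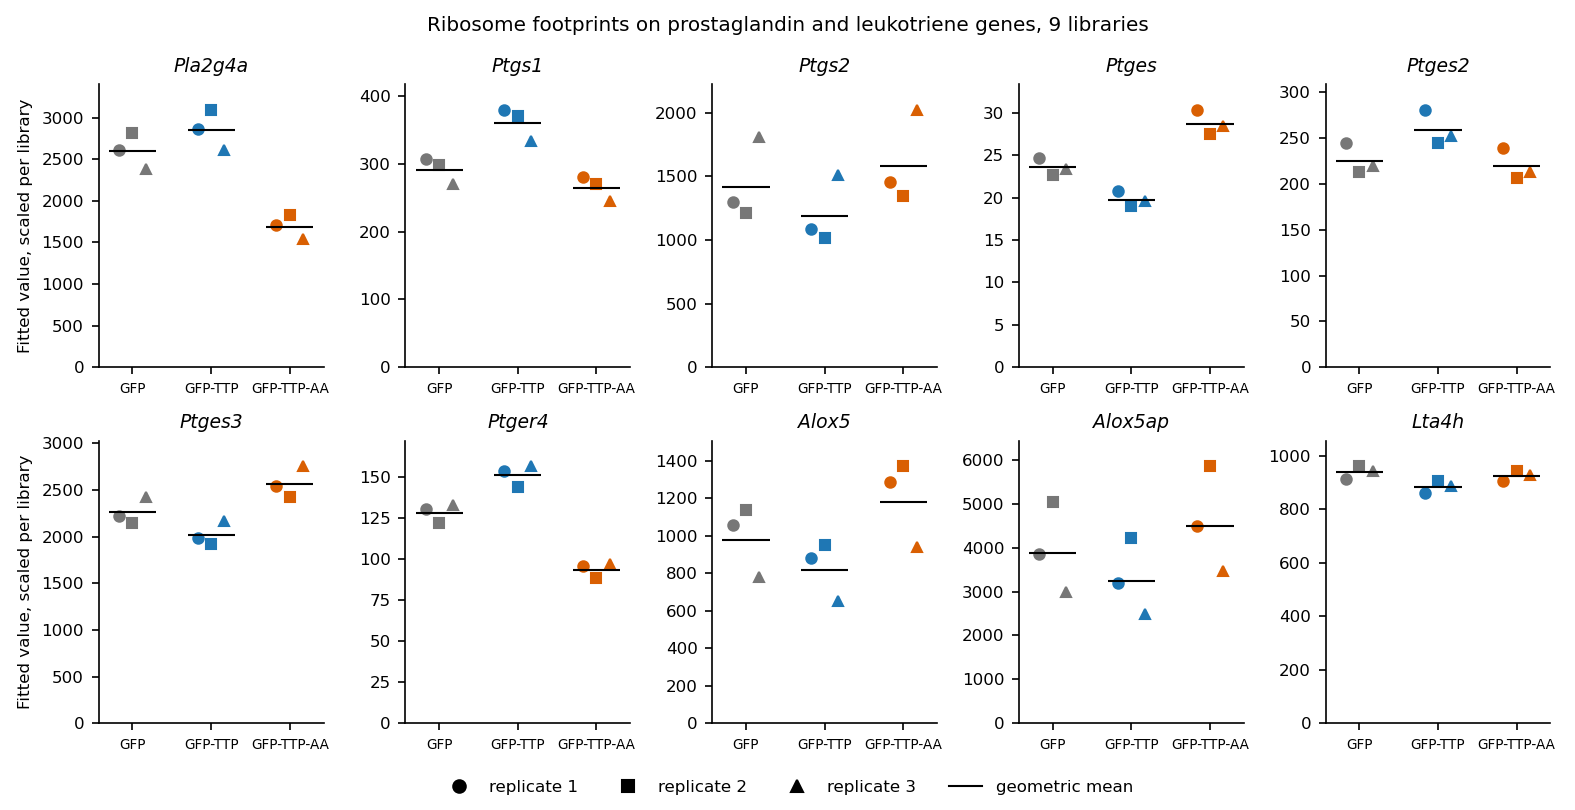
Scaled fitted value of each member in the 9 libraries, by condition. Circles, squares and triangles are replicates 1, 2 and 3, the black line is the geometric mean of the 3 libraries, and every axis starts at 0. The GFP-TTP-AA libraries lie below all others for Pla2g4a and Ptger4, while the conditions overlap for Ptgs2, Alox5 and Alox5ap. Separation and overlap depend on the size of the fitted replicate-number term and do not show the spread of measured libraries.

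Pla2g4a, the phospholipase that supplies arachidonic acid to both branches, showed the largest range over the conditions of all members. It lies on the minus strand of chr1:149829618-149961290 (GRCm38). Its scaled values were 2608, 2812 and 2380 in GFP-only macrophages, 2862, 3090 and 2613 in GFP-TTP macrophages, and 1709, 1825 and 1547 in GFP-TTP-AA macrophages. All 3 GFP-TTP-AA values were below the other 6, which overlapped with each other, and since the values are fitted this describes the terms of the model and not the spread of measured libraries. The level with GFP-TTP-AA was 0.593 times that with GFP-TTP, a difference of -0.75 (counting interval -0.80 to -0.71). Against GFP-only macrophages the difference was -0.62 (-0.67 to -0.57). GFP-TTP and GFP-only macrophages differed by 0.13 (0.09 to 0.18).

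The next kept gene on the chromosome is Ptgs2, 138.7 kb away at chr1:150100031-150108227 on the plus strand. Its footprints were ordered the other way. The scaled values of Ptgs2, the LPS-inducible COX-2, were 1297, 1209 and 1810 in GFP-only macrophages, 1084, 1012 and 1514 with GFP-TTP, and 1459, 1348 and 2020 with GFP-TTP-AA. Replicate 3 was the highest library within each condition. The conditions overlapped because the fitted replicate-number term, the same in all of them, was large (0.58). Such overlap does not measure how firm a difference is. The level was 1416 in GFP-only macrophages, 1184 in the GFP-TTP line and 1584 in the GFP-TTP-AA line. This member, which held the most AU-rich motifs, was lower with GFP-TTP than with GFP alone (-0.26, counting interval -0.32 to -0.20) and higher with GFP-TTP-AA (0.16, 0.11 to 0.22). GFP-TTP-AA and GFP-TTP differed by 0.42 (0.36 to 0.48), which is not past the fold. Rgs18, the kept gene on the other side of Pla2g4a, lies 5054.2 kb away and differed by -0.33 for GFP-TTP-AA relative to GFP-TTP. The median of the 587 kept genes of chromosome 1 was -0.01 in that comparison.

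Ptgs1, the constitutive COX-1, is on the plus strand of chr2:36230426-36252272. Its levels were 291 with GFP, 360.3 in the GFP-TTP line and 265 in the GFP-TTP-AA line, the reverse of the order of Ptgs2. The differences were 0.31 for GFP-TTP against GFP (counting interval 0.18 to 0.43), -0.14 for GFP-TTP-AA against GFP (-0.26 to -0.01) and -0.44 for GFP-TTP-AA against GFP-TTP (-0.56 to -0.33), none of them past the fold. The ratio of the cyclooxygenases does not depend on the scaling of the libraries. Per kilobase of coding sequence, the level of Ptgs2 was 4.85 times that of Ptgs1 in GFP-only macrophages, 3.28 times in GFP-TTP macrophages and 5.96 times in GFP-TTP-AA macrophages. On the log2 scale this ratio was 0.86 higher in the GFP-TTP-AA line than in the GFP-TTP line. Per kilobase, Ptgs2 reached 0.676 and 0.515 times the level of Pla2g4a in GFP-only and GFP-TTP macrophages and 1.16 times with GFP-TTP-AA.

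**Figure D3:**
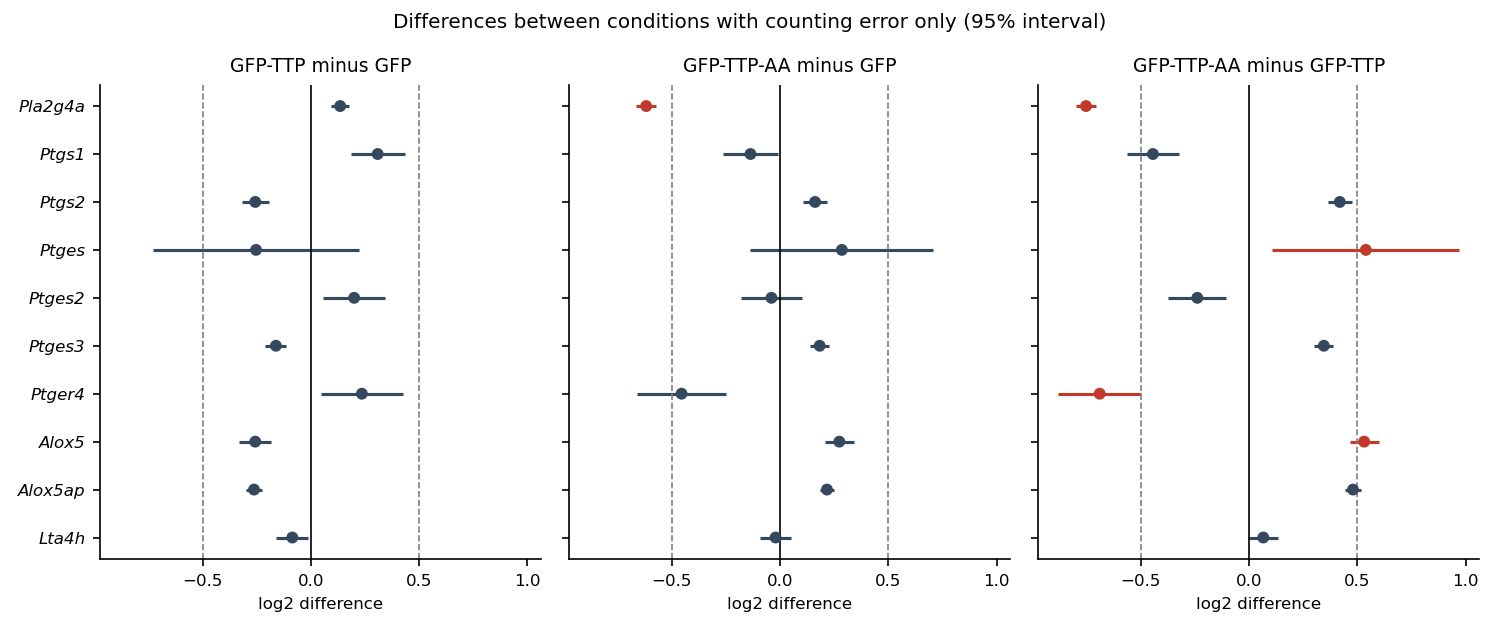
Difference between condition levels for each member in the 3 comparisons, on the log2 scale. Points are differences, horizontal lines are 95% intervals for counting error alone, dashed lines mark 0.5 in either direction and red marks members past the fold; Pla2g4a is red in both comparisons with GFP-TTP-AA, and Ptges has the widest intervals.

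The 3 prostaglandin E synthases differed in level, and Ptges2 had the opposite order of conditions to Ptges and Ptges3. Ptges, the inducible microsomal enzyme that is usually coupled to COX-2, lies on the minus strand of chr2:30889471-30929863 and had few footprints. Its scaled values were 24.7, 22.6 and 23.4 in GFP-only macrophages, 20.7, 19.0 and 19.6 with GFP-TTP, and 30.3, 27.5 and 28.4 with GFP-TTP-AA. Being fitted, these values are apart between conditions because the replicate-number term is small (0.13). GFP-TTP-AA macrophages were 0.54 above GFP-TTP macrophages, and the counting interval was 0.11 to 0.97. In the comparisons with GFP-only macrophages the counting interval included 0 (-0.73 to 0.22 for GFP-TTP, -0.14 to 0.71 for GFP-TTP-AA). The call of Ptges was lost with a pseudocount of 10 and it is left out when a mean of at least 50 is required. Per kilobase, its level was between 0.0657 and 0.0716 times that of Ptgs2 in all 3 conditions. Its kept neighbours Asb6 (59.1 kb away) and Tor1b (23.1 kb away) differed by 0.00 and -0.17 for GFP-TTP-AA relative to GFP-TTP.

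Ptges3, also known as the HSP90 co-chaperone p23, had levels of 2263 with GFP, 2023 in the GFP-TTP line and 2570 in the GFP-TTP-AA line, and its libraries lay between 1919 and 2752. GFP-TTP-AA macrophages were 0.35 above GFP-TTP macrophages (counting interval 0.30 to 0.39), and Ptges3 was not past the fold in any comparison. With the median of chromosome 10 subtracted this difference was 0.18, and that of GFP-TTP against GFP was -0.05 in place of -0.16. Ptges3 has a processed pseudogene in the mouse genome, and reads could be placed at up to 2 sites. Its footprints may thus be shared with similar sequences or left uncounted, which cannot be told from the values. Ptges2, a membrane-associated synthase, had levels of 225, 259 and 219 in these conditions, with all libraries between 206.9 and 281. The differences of Ptges2 were between -0.24 and 0.20, and the counting interval of GFP-TTP-AA against GFP-only macrophages included 0.

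Ptger4, which encodes the prostaglandin E2 receptor EP4, followed the pattern of Pla2g4a. Its scaled values were 130.5, 122 and 133 in GFP-only macrophages, 153.5, 144 and 157 with GFP-TTP, and 95.8, 88.8 and 96.8 with GFP-TTP-AA. The GFP-TTP-AA values were the lowest 3, and the values of the 3 conditions are apart because the fitted replicate-number term is small (0.12). With GFP-TTP-AA the level was 0.620 times that with GFP-TTP, a difference of -0.69 (counting interval -0.88 to -0.50). Against GFP-only macrophages it was -0.46 (-0.66 to -0.25), not past the fold. GFP-TTP macrophages were 0.24 above GFP-only macrophages (0.05 to 0.42). The gene lies on the minus strand of chr15:5206661-5244187, and its annotated bounds overlap by 11.7 kb with those of Ttc33 on the plus strand. The coding sequence and the printed 3′UTR stretch of the transcript used lie outside this overlap. Whether reads were counted by strand is not given in the sources used here. The GFP-TTP-AA level of Ttc33 differed by -0.32 from that with GFP-TTP and by -0.07 from that with GFP. For Dab2, the next kept gene on the other side at 1055.6 kb, these values were -0.41 and -0.40.

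In the leukotriene branch, Alox5 and Alox5ap were ordered like Ptgs2, lowest in the GFP-TTP line and highest in the GFP-TTP-AA line. Alox5 lies on the minus strand of chr6:116410077-116461178. The scaled values of Alox5 were 1056, 1136 and 780 in GFP-only macrophages, 883, 951 and 652 with GFP-TTP, and 1284, 1369 and 940 with GFP-TTP-AA. Replicate 3 was the lowest in each condition, and the conditions overlapped through the fitted replicate-number term (0.54). This overlap too does not measure how firm a difference is. The difference for GFP-TTP-AA relative to GFP-TTP was 0.53 (counting interval 0.46 to 0.60). It was -0.26 for GFP-TTP against GFP (-0.33 to -0.18) and 0.27 for GFP-TTP-AA against GFP (0.21 to 0.34). With the median of chromosome 6 subtracted, the difference for GFP-TTP-AA relative to GFP-TTP was 0.49 and no longer past the fold. Its bounds lie 0.5 kb from those of March8, which is on the opposite strand and differed by 0.09 in that comparison. Zfp422, on the other side at 162.8 kb, differed by 0.41.

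Alox5ap, on the plus strand of chr5:149264767-149288153, had scaled values of 3845, 5047 and 2996 in GFP-only macrophages, 3202, 4209 and 2496 with GFP-TTP, and 4494, 5845 and 3473 with GFP-TTP-AA. Replicate 2 was the highest and replicate 3 the lowest within each condition. The conditions overlapped, again through the fitted replicate-number term (0.75), which is the same in all of them. GFP-TTP-AA and GFP-TTP macrophages differed by 0.48 (counting interval 0.44 to 0.51), just short of the fold, and by 0.50 with the median of chromosome 5 subtracted. Per kilobase, FLAP was at 16.6 times the level of Alox5 with GFP, 16.5 times with GFP-TTP and 15.9 times with GFP-TTP-AA. The level of Alox5 relative to Pla2g4a, per kilobase, was 0.418, 0.319 and 0.777 in these conditions. Lta4h, at chr10:93453411-93484875 on the plus strand, had the smallest range of all members, 0.09. Its libraries lay between 861 and 961, and the counting interval of its difference included 0 both for GFP-TTP-AA against GFP (-0.09 to 0.05) and for GFP-TTP-AA against GFP-TTP (-0.0045 to 0.14).

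Several macrophage markers differed along with Alox5, Alox5ap and Ptgs2. For GFP-TTP-AA relative to GFP-TTP, 4 of the 8 kept markers were past the fold, all higher with GFP-TTP-AA, beside 5.92% of all kept genes, and the median of the 8 was 0.48. The largest difference was 1.21 for Adgre1, which encodes the F4/80 antigen, while Itgam, which encodes CD11b, differed by -0.01. S100a8, a neutrophil and inflammatory macrophage gene, was 1.12 higher. Against GFP, the markers Itgam (0.10) and Cd14 (0.11) were higher with GFP-TTP, where these members were lower, and Fcgr1 was at -0.24 with GFP-TTP-AA, where they were higher. The part of these shifts in the values of the members was not tested.

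**Figure D4:**
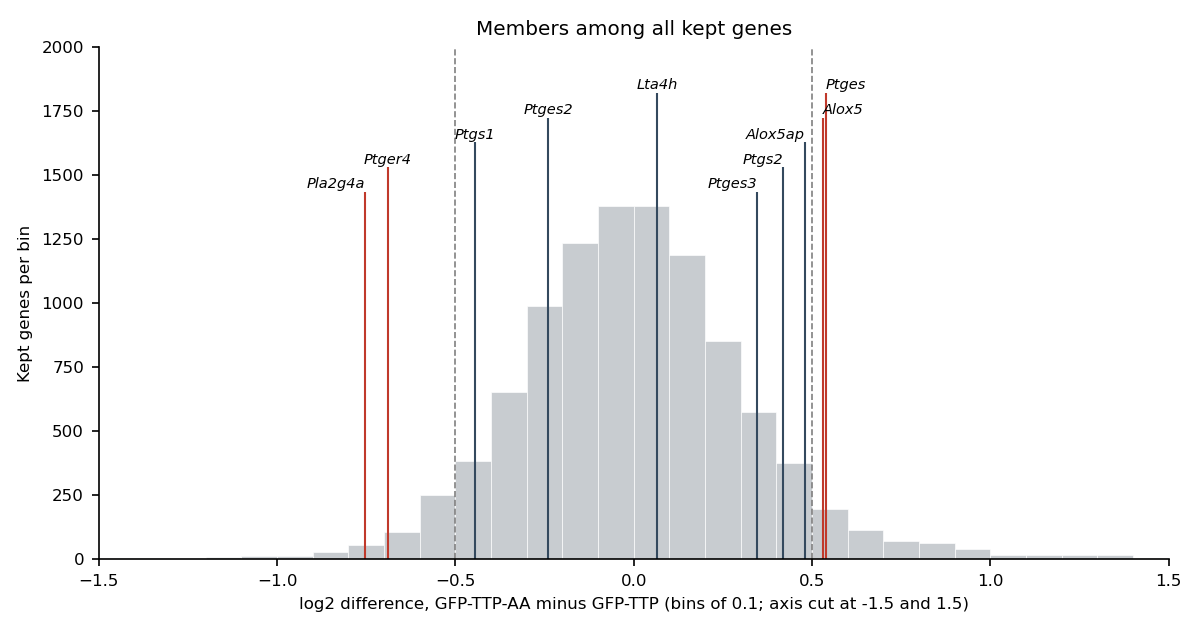
Histogram of the difference for GFP-TTP-AA relative to GFP-TTP on the log2 scale for the 10102 kept genes (bins of 0.1, axis limited to the central range). Vertical lines mark the members, red where past the fold of 0.5 shown by dashed lines; Pla2g4a and Ptger4 lie on the low side, and Ptges and Alox5 on the high side with Alox5ap just inside the line.

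For 3 members the values differed more between replicate numbers than between conditions. Over the replicate numbers the level of Alox5ap ranged by 0.75 on the log2 scale, against 0.48 over the conditions. The ranges were 0.58 and 0.42 for Ptgs2 and 0.54 and 0.53 for Alox5. For the other 7 members the range over conditions was larger, with 0.75 against 0.24 for Pla2g4a, 0.69 against 0.12 for Ptger4 and 0.54 against 0.13 for Ptges. The median over all kept genes was 0.29 for replicate numbers and 0.27 for conditions. The authors' model had a term for the library date, and what else differed between the numbers is not given in the sources used here.

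**Figure D5:**
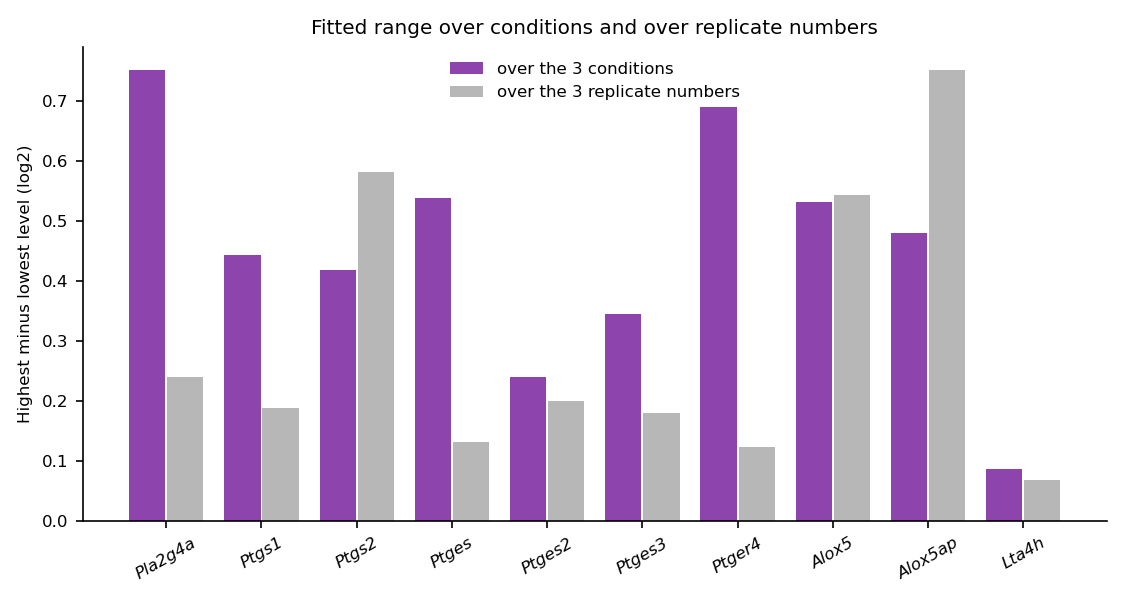
Highest minus lowest level of each member on the log2 scale, over the 3 conditions (purple) and over the 3 replicate numbers (grey). The grey bar is the higher one for Ptgs2, Alox5 and Alox5ap.

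By their differences from GFP-only macrophages in both other conditions, the genes nearest to Pla2g4a among 8440 genes with a mean of at least 50 were Nprl3, Pif1 and Tmem206, at distances of 0.03, 0.05 and 0.05 on the log2 scale. For Nprl3 the GFP-TTP difference was 0.16 and the GFP-TTP-AA difference -0.63.

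Of 51 other genes of eicosanoid metabolism and signalling, 40 were listed and 22 kept. Of these 22, 10 were past the fold in at least 1 comparison, as were 4 of the 10 members and 14.5% of all kept genes. Between GFP-TTP and GFP, 3 of the 22 were higher and 2 lower, beside 1.58% and 2.71% of all kept genes. For GFP-TTP-AA against GFP, 2 were higher and 2 lower, beside 3.42% and 2.62%. Against GFP-TTP the mutant had 4 higher and 1 lower, beside 5.92% and 4.84%. The remaining 12 kept genes, among them the thromboxane synthase Tbxas1 and the exporter Abcc4, had differences between -0.47 and 0.37.

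Hpgds, the hematopoietic prostaglandin D synthase, had the lowest difference between GFP-TTP and GFP on this wider list. Its level was 455 with GFP, 232 in the GFP-TTP line and 488 in the GFP-TTP-AA line, a difference of -0.97 for GFP-TTP against GFP and of 1.07 for GFP-TTP-AA against GFP-TTP. Ptgir, the prostacyclin receptor, was ordered like Ptger4, with levels of 119, 172 and 82.8 and a difference of -1.06 for GFP-TTP-AA relative to GFP-TTP. Its difference from GFP was 0.53 in the GFP-TTP line and -0.53 in the GFP-TTP-AA line. Of 8 other prostanoid receptors on the list Ptgir alone was kept, while Ptger3 had a mean of 2.35 and Ptger2 a lower one.

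The calcium-independent phospholipase Pla2g6 was 0.56 higher in GFP-TTP-AA than in GFP-only macrophages, opposite in direction to Pla2g4a. Ptgr1, which inactivates prostaglandins and leukotriene B4, was 0.57 higher in the GFP-TTP-AA line than in the GFP-TTP line. Zadh2, another prostaglandin reductase, was 0.53 higher with GFP-TTP than with GFP.

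Enzymes around the cysteinyl leukotrienes differed in both directions. Ltc4s, the leukotriene C4 synthase, had levels of 94.0 with GFP, 77.4 in the GFP-TTP line and 56.7 in the GFP-TTP-AA line, with a difference of -0.73 between the last and the first. Mgst2, which has leukotriene C4 synthase activity too, was at 89.8, 133 and 179, a difference of 1.00. It was also 0.56 higher with GFP-TTP than with GFP. Dpep2, a dipeptidase that converts leukotriene D4, was 0.56 higher in the GFP-TTP-AA line than in the GFP-TTP line. Cotl1, whose product binds 5-lipoxygenase, was 0.76 higher in the same comparison. Cyp4f18, which inactivates leukotriene B4 by hydroxylation, differed by -0.64 between GFP-TTP and GFP. The leukotriene B4 receptors Ltb4r1 and Ltb4r2 had means of 0.856 and 1.02 and were not kept, while the cysteinyl leukotriene receptor Cysltr1 had levels of 138, 99.8 and 112.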

How the data were processed

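RiboSeq libraries (9, 3 per condition) were prepared with the ARTseq kit, and per the labels' processing notes the tools were Trim Galore, TopHat2 2.0.12, HTSeq and DESeq2 1.6.3 with mm10 (GRCm38). The methods state that up to 2 alignments per read were kept. Whether reads with 2 alignments were counted cannot be told from the values, so footprints of similar sequences may be shared or missing. The authors deposited a table of normalized counts, a signal of 16932 lines for 16921 identifiers (11 repeated lines, 1 line without a gene name). It holds fitted values. Tested on the values, terms for library, condition and replicate number left no residual. The authors' DESeq2 model had terms for library date and condition, and no source used here ties dates to replicate numbers. The deposited comparison tables hold the mean signal over all libraries, log2 fold changes, standard errors, test statistics and p-values of the authors' comparisons. Of these the mean signal alone was read, as a check: the fitted mean of each member lay within 2.20% of the authors' mean.

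Values were scaled by median-of-ratios factors, genes with a mean of at least 10 were kept, and levels were geometric means (Python 3.11.15, pandas 2.3.3, numpy 2.4.6). A design with tests between conditions could not be used because the fitted values hold no spread between replicates. Depth is known only as the sum of fitted values per library. Intervals (95%) cover counting error only. The calculation was tested on simulated data. Alternatives were other scalings, the median of each chromosome subtracted, pseudocounts, filters and folds. Motifs and positions were taken from GENCODE vM21 and the GRCm38 genome, the build of the files, which give positions for 16836 identifiers. The genes described and the gene lists were chosen with earlier results of these data known. Genes were named by rule: all members, pathway genes past the fold, Zfp36, the 3 genes nearest to the member with the largest range, and the kept neighbours of members past the fold. Markers were taken from a fixed list, and ratios between members were chosen after their levels were seen.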

Additional observations from a re-analysis of the deposited data

How the results depend on the processing

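Scaling libraries to the same total or by the upper quartile moved no member's difference by more than 0.02 on the log2 scale and no count of members past the fold. The counts depend on the fold: with 0.25 on the log2 scale 5 members were past it for GFP-TTP against GFP, 4 for GFP-TTP-AA against GFP and 8 for GFP-TTP-AA against GFP-TTP, beside 26.2%, 29.2% and 38.8% of all kept genes, and with 1 there were 0 in each, beside 0.554%, 0.554% and 1.57%. With a pseudocount of 10 or a mean of at least 50, Ptges was no longer past the fold between GFP-TTP-AA and GFP-TTP. This left 3 members, beside 8.34% of all kept genes with that pseudocount and 9.94% with that mean. Subtracting the median of each chromosome took Alox5 (0.49) out and brought Alox5ap (0.50) in, with the count at 4, beside 9.96%. It also turned the sign of Lta4h for GFP-TTP against GFP (0.03) and GFP-TTP-AA against GFP-TTP (-0.10), neither past the fold. For Ptges3 it took GFP-TTP-AA against GFP-TTP from 0.35 to 0.18 and GFP-TTP against GFP from -0.16 to -0.05. Pla2g4a and Ptger4 were past the fold between GFP-TTP-AA and GFP-TTP under every alternative except a fold of 1. Of the other pathway genes, 3 instead of 5 were past the fold between GFP-TTP and GFP with a pseudocount of 10, beside 2.8% of all kept genes. For GFP-TTP-AA against GFP the count of 4 became 3 with that pseudocount, beside 4.21%. It became 5 with chromosome medians subtracted, beside 5.63%. Among the 40 listed pathway genes, kept or not, the counts were 5, 6 and 7 in the 3 comparisons. Without the filter on low values the share of all genes past the fold was 2.66%, 3.84% and 6.8% in the 3 comparisons. No paired analysis was possible because terms for library, condition and replicate number left no residual in the deposited values to block. For the same reason leaving out each replicate could not be run. Few footprints limit what can be read for Ptges.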
